A study of Triticum urartu with 18 samples.

Results

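The MYB and MYB-related transcription factors of Triticum urartu, the wild diploid wheat related to the A genome donor of bread wheat, were followed through grain filling by RNA-Seq. Members were the genes whose annotation in the deposited expression table contains MYB and is not an individual gene name beginning with Tu. The rule gave 140 of the 27121 genes in the table, 75 annotated MYB and 65 annotated MYB_related. It uses no measured value, and it leaves out TuGAMYB (TRIUR3_27104), which the table names individually. All plants were of the untreated wild-type accession PI 428198. Endosperm was collected at 5, 10, 15, 20 and 25 days post anthesis (DPA), with embryo, aleurone, seed coat and pericarp removed, and flag leaf was collected at 10 DPA. Each of these 6 groups had 3 libraries, described in the labels as biological replicates grown in replicate field rows. The labels do not say how many plants or grains went into a library, so p-values measure the spread between these libraries.

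MYB proteins bind DNA through imperfect repeats of a helix-turn-helix fold. In plants, proteins with a paired repeat (R2R3-MYB) regulate phenylpropanoid and flavonoid synthesis, cell identity and responses to hormones and stress, while many MYB-related proteins carry a lone repeat and include components of the circadian clock and regulators of epidermal cell fate. In cereal grains, GAMYB activates storage protein genes in the developing endosperm and hydrolase genes in the aleurone, and MYB-related proteins of barley bind promoters of endosperm genes. The table gives each of the 140 genes a family name and an identifier only, so no individual role can be attached to any of them. None of the identifiers could be matched to a sequence, and no sequence is shown.

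Values are FPKM, fragments per kilobase of transcript scaled to a library's mapped fragments, as the authors deposited them. FPKM is divided by transcript length, so levels of different genes can be set side by side. Depth is unknown. The smallest steps of low values gave an estimate of relative depth, with 10 DPA library 1 set to 1. It was lowest in leaf library 1 (0.337) and highest in library 2 of 5 DPA (1.16). The labelled tissues were checked with storage prolamin genes, which mark starchy endosperm. Beside them stand 84 genes chosen from these data for high levels in leaf and far lower levels at 15 DPA, none of which belongs to the family. The 21 prolamin genes held 17.1% to 22.1% of all FPKM at 10 and 15 DPA and at most 0.00102% in leaf, but at most 0.0129% at 5 DPA, 0.892% to 1.28% at 20 DPA, and 0.382%, 12.1% and 1.99% in the 25 DPA libraries. The 84 leaf-abundant genes had a median of 1794 to 2810 FPKM in leaf libraries, 452 to 510 at 5 DPA, 95.7 to 125 at 10 DPA and at most 28.4 at later stages. Their leaf and 15 DPA levels follow from how they were chosen and cannot check those labels. No marker of aleurone, embryo, seed coat or pericarp is annotated, so remnants of these tissues could not be looked for. The 12 most abundant genes took 24.0% to 32.2% of FPKM at 5 DPA but 83.2% to 86.1% at 20 DPA. The 25 DPA libraries were unlike each other, with 85.4% in library 1 against 44.5% and 45.7% in libraries 2 and 3. In this share 25 DPA library 1 was like the 20 DPA libraries, and the labels do not say why it differs from its group. Over all genes its Spearman correlation was 0.697 and 0.703 with the other 25 DPA libraries and 0.598 to 0.633 with the 20 DPA libraries. Every 25 DPA mean and call below includes this library unless stated. Leaf library 1 stood apart in the share of the 12 genes in the same way, at 67.9% against 43.4% and 39.9%. Because a larger share for a few genes lowers the FPKM of all others, each comparison was also made after median-ratio scaling, which sets the genes above 0 in all libraries of a fit to a common median. In these bulk samples, fewer cells of a type and less RNA per cell cannot be told apart.

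In the endosperm the family was most abundant at 5 DPA. Its FPKM summed over all 140 members averaged 1447.5 ± 77.3 at 5 DPA and 607 ± 21.1 at 10 DPA (SD, n = 3 each). By 15 DPA it was 351 ± 36.3, and 20 DPA had the lowest sum, 45.1 ± 7.01. The 25 DPA libraries had 60.22, 551.84 and 924.47 FPKM and the leaf libraries 659.15, 1173.03 and 1130.2 FPKM. The stages from 5 to 20 DPA did not overlap, whereas 25 DPA library 1 lay near the 20 DPA level and the other 25 DPA libraries lay above the levels of 15 DPA. After median-ratio scaling no such decline was seen. From 5 to 25 DPA, in stage order, the scaled sum was 328 ± 23.9, 329 ± 5.13, 321 ± 20.7, 300 ± 25.6 and 366 ± 46.0.

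The sums of the annotations MYB and MYB_related parted on the scaled values. MYB genes summed to 143 ± 12.4, 130 ± 3.86, 105 ± 11.5, 99.6 ± 9.95 and 74.2 ± 6.79 scaled FPKM from 5 to 25 DPA. MYB_related genes summed to 185 ± 11.5, 200 ± 8.71, 216 ± 9.19, 200 ± 16.7 and 292 ± 52.5 scaled FPKM at the same stages. Every 25 DPA library was below all earlier libraries in the MYB sum and above all of them in the MYB_related sum. In the deposited values both annotations fell together up to 20 DPA, with MYB at 15.0 ± 2.61 and MYB_related at 30.1 ± 4.48 FPKM at that stage. TRIUR3_11068 alone made up 16.0%, 23.7% and 27.1% of the MYB_related sum in the 25 DPA libraries. Without it the scaled MYB_related sums at 25 DPA were 223, 197 and 257, against at most 206 in any earlier library. In this sum 25 DPA library 2 overlapped the earlier stages. Among MYB genes, TRIUR3_25784 made up 11.99%, 11.45% and 11.44% of the MYB sum in the 10 DPA libraries. Like TRIUR3_25230, at 13.67, 17.74 and 9.88 FPKM at 10 DPA, it was listed at 0 from 15 DPA on. The MYB sum was not computed without these genes, so their part in its fall by 15 DPA was not tested.

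**Figure D1:**
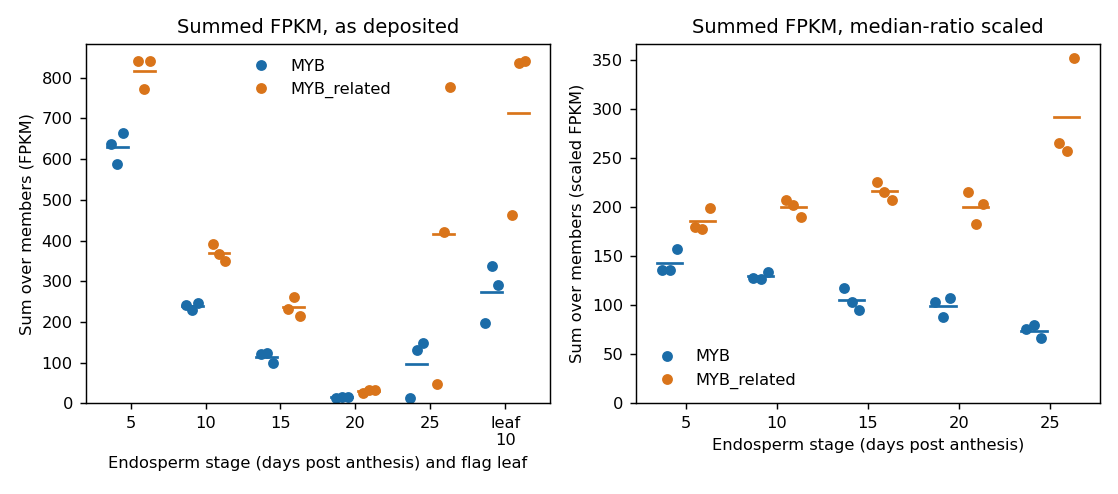
Summed FPKM of the 75 MYB and 65 MYB_related genes in each library (points; lines are group means of 3 libraries) by endosperm stage, as deposited with flag leaf (left) and after median-ratio scaling of the endosperm libraries (right). The deposited sums are lowest at 20 DPA, while the scaled sums differ less, with MYB lowest and MYB_related highest at 25 DPA.

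Most members were weakly expressed. The highest group mean was under 1 FPKM for 27 of 140 members, from 1 to under 10 FPKM for 59, and at least 10 FPKM for 54, of which 11 reached 50 FPKM. Each annotation had 27 members in the class of at least 10 FPKM, but 18 of 75 MYB genes and 9 of 65 MYB_related genes stayed under 1 FPKM. Continuous presence was mainly found among MYB_related genes. Of the 18 members above 0 in all 18 libraries, 4 were MYB and 14 MYB_related, and of the 26 members with at least 1 FPKM in every library of 5, 10 and 15 DPA and of leaf, 7 were MYB and 19 MYB_related. Members above 0 in all 15 endosperm libraries made up 14.3% of the family, against 17.9% of all genes in the table. The number of members above 0 in a library went down with stage, with 107 to 111 at 5 DPA, 89 to 90 at 10, 65 to 73 at 15 and 40 to 42 at 20 DPA, and was 44 to 76 at 25 DPA and 56 to 75 in leaf. The share of all genes above 0 went down too. It was 78.8% to 79.6% at 5 DPA, 68.5% to 70.1% at 10, 56.4% to 59.5% at 15 and 34.4% to 40.6% at 20 DPA. For members these shares were 76.4% to 79.3%, 63.6% to 64.3%, 46.4% to 52.1% and 28.6% to 30.0%.

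A stage mean of at least 1 FPKM was reached by 105 members, and 79 of them had their highest stage mean at 5 DPA. This share was 79.2% for MYB and 71.2% for MYB_related, against 81.6% of all genes that reached 1 FPKM. A peak at 10 DPA was seen for 13.2% of MYB and 15.4% of MYB_related genes, against 6.61% of all genes. A peak at 25 DPA was seen for 5.66% of MYB and 11.5% of MYB_related genes, against 9.21% of all genes. The remaining members comprised 2 that peaked at 15 DPA and 0 at 20 DPA. A change over the 5 stages was tested with the moderated F-test of limma on log2(FPKM + 1), at a Benjamini-Hochberg adjusted p under 0.05, for genes with at least 1 FPKM in at least 3 of the 15 endosperm libraries. This filter admitted 99 members, 49 MYB and 50 MYB_related. The test was passed by 48 MYB and 46 MYB_related genes, or 94 of 99, where 92.1% of all tested genes passed. After median-ratio scaling 26 of 40 MYB and 19 of 41 MYB_related genes passed, where 54.9% of all tested genes did.

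Single intervals were compared in the same limma fit, and calls required an adjusted p under 0.05 together with a log2 change of at least 1 in either direction. These log2 changes are on the log2(FPKM + 1) scale and understate changes of low genes. Over the 4 successive intervals, the most frequent course was a fall at 10 DPA with no later call, shown by 20 members, 14 MYB and 6 MYB_related. A fall at 20 DPA followed by a rise at 25 DPA, with no call before, was shown by 15 members, 4 MYB and 11 MYB_related. Another 15 members, 5 MYB and 10 MYB_related, had no call in any interval. A rise at 10 DPA followed by a fall at 20 DPA was found for 4 MYB genes and 0 MYB_related genes. The share of all genes with each course was not counted, so these numbers are a description. Counted interval by interval, 45.6% of all genes tested fell and 3.16% rose at 10 DPA. A fall at 20 DPA was called for 43% and a rise at 25 DPA for 35.3% of them. Differences between the annotations in these courses were not tested.

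**Figure D2:**
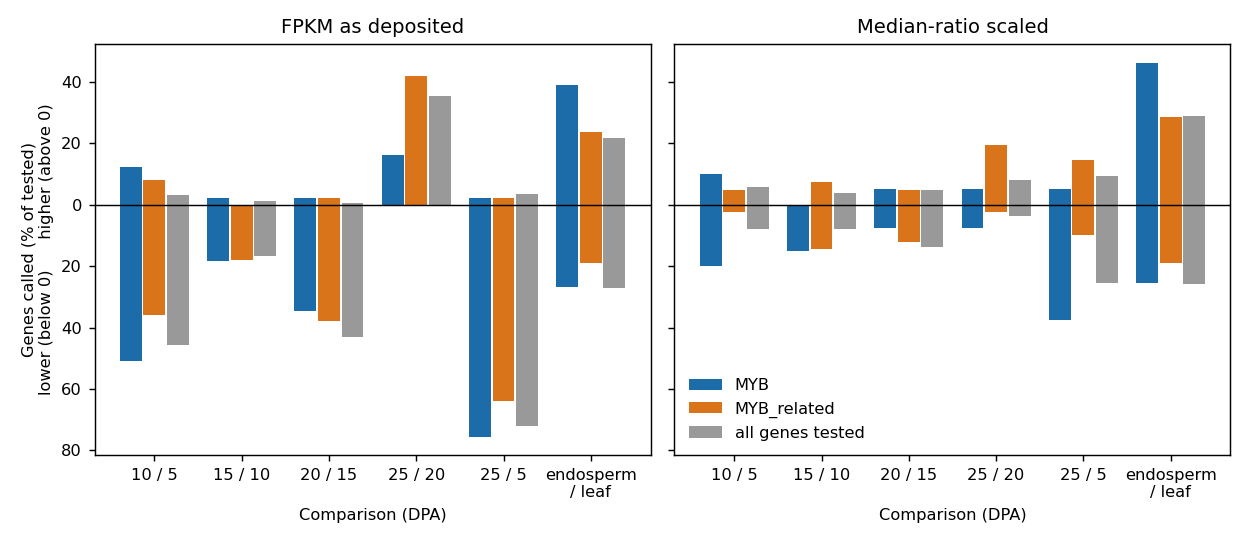
Percentage of tested genes called higher (above 0) or lower (below 0) in each comparison, first-named stage or tissue over the second, for MYB, MYB_related and all genes tested, in FPKM as deposited (left) and after median-ratio scaling (right). At 10 against 5 DPA the deposited values give falls in 43 of 99 members and the scaled values in 9 of 81.

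At 10 against 5 DPA, where all 21 prolamin genes were called higher, 10 members rose and 43 fell. This was 53 of 99, where 48.7% of all genes tested were called. Rises were called for 3.16% and falls for 45.6% of all genes tested, and the share of members that fell was near this background. Of the 10 members that rose, 3 passed the filter through the 10 DPA libraries alone, reaching 1 FPKM in no other library of the fit, as did 6.53% of all genes that rose, and such genes had to differ, so the count of rises is given as a description. Likewise 6 of the 43 falls passed through the 5 DPA libraries alone. Members that reached 1 FPKM in some, but fewer than 3, other libraries also needed their higher stage to be tested. They are not in these counts or in those below. The rises comprised 6 MYB and 4 MYB_related genes, and the falls 25 MYB and 18 MYB_related genes. The median log2 change was -1.25 for MYB, -0.98 for MYB_related and -1.23 for all genes. Scaling shifted the median of all genes to -0.14 and left 6 rises and 9 falls among 81 members, where 13.4% of all genes were called, 5.6% higher and 7.84% lower. All 6 of these rises and all 9 of these falls were also called in the deposited values. Of the 9 falls, 8 were MYB genes. Scaling divided the 5 DPA values by 4.23 to 4.69 before 1 was added, which shrank the log2 changes of low genes. TRIUR3_27706 (MYB), for example, went from -2.06 to -0.79 and was no longer called (adjusted p = 0.00542 by limma). How many falls were lost in this way, here or at 25 against 5 DPA, was not tested.

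Among the members that rose, TRIUR3_20797 (MYB) had the highest level. It had 21.99, 21.16 and 23.66 FPKM at 10 DPA and 0.83, 1.54 and 6.1 FPKM at 5 DPA. All 10 DPA libraries were above all 5 DPA libraries, and the gene was at or below 0.45 FPKM in every library of 15, 20 and 25 DPA and of leaf. The log2 change was 2.86 (SE 0.39, adjusted p = 3.09e-05 by limma) and 3.05 after scaling. Outside 10 DPA the gene reached 1 FPKM in fewer than 3 endosperm libraries. It met the filter only with its 10 DPA libraries, so its p-values are descriptive.

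TRIUR3_26358 (MYB) had 16.12, 14.1 and 25.65 FPKM at 10 DPA and 2.23, 1.18 and 2.34 FPKM at 5 DPA. Unlike TRIUR3_20797 it was still at 13.13, 13.32 and 10.1 FPKM at 15 DPA. The groups of 10 and 5 DPA did not overlap, with a log2 change of 2.73 (SE 0.50, adjusted p = 0.000451 by limma) and 2.92 after scaling. TRIUR3_27902 (MYB) was lower, with 13.29, 8.62 and 10.3 FPKM at 10 DPA and 4.25, 3.85 and 2.26 FPKM at 5 DPA. Its groups did not overlap either, and its log2 change was 1.41 (SE 0.43, adjusted p = 0.0136 by limma), but it was not called after scaling (adjusted p = 0.0865 by limma). The other risers, outside the rule for named genes, stayed below 10 FPKM on average and included TRIUR3_15020 (MYB), at 7.86, 10.76 and 9.05 FPKM at 10 DPA against 2.66, 3.68 and 2.79 at 5 DPA. TRIUR3_07775 and TRIUR3_20385 (both MYB_related) were listed at 0 in all 5 DPA libraries, and TRIUR3_20385 passed the filter through its 10 DPA libraries alone. They reached 6.21, 10.24 and 4.81 FPKM and 7.93, 5.43 and 6.68 FPKM at 10 DPA. Of the 10 risers, 8 were listed at 0 in every leaf library, but the share among all genes that rose was not counted. Leaf libraries were also among the shallowest, at a relative depth of 0.337 to 0.639.

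Among members with a 5 DPA mean of at least 10 FPKM, the 6 largest falls at 10 DPA were all of MYB genes. TRIUR3_18702 had 1.79, 0.42 and 0.91 FPKM at 10 DPA and 34.5, 28.88 and 35.8 FPKM at 5 DPA. It was low in every later library and in leaf, where it reached at most 2.81 FPKM. The log2 change was -4.11 (SE 0.37, adjusted p = 6.25e-07 by limma) and -2.47 after scaling. TRIUR3_13997 had 2.18, 4.64 and 2.79 FPKM at 10 DPA and 30.54, 29.11 and 38.02 FPKM at 5 DPA. TRIUR3_28076 had 1.67, 0.79 and 2.55 FPKM at 10 DPA and 14.78, 18.71 and 23.08 FPKM at 5 DPA. It differed from the other large fallers in its leaf level of 7.81, 10.85 and 10.35 FPKM. TRIUR3_35269, TRIUR3_24104 and TRIUR3_01098 were at 0.43 to 2.21 FPKM at 10 DPA and at 11.88 to 22.55 FPKM at 5 DPA. None of the 10 DPA libraries overlapped the 5 DPA libraries for these 5 genes. TRIUR3_35269 passed the filter through its 5 DPA libraries alone, and the log2 changes of the other 4 lay between -3.13 and -2.90 and were also called after scaling. The 84 leaf-abundant genes were also lower at 10 DPA, at a median of 4.14% of their leaf level against 17.3% at 5 DPA, and their part in the falls was not tested.

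At 15 against 10 DPA, 1 member rose and 18 fell, 9 MYB and 9 MYB_related genes among the falls, where 17.9% of all genes tested were called, 1.28% higher and 16.7% lower. The median log2 change was -0.57 for the family and -0.65 for all genes. After scaling, 12 of the 18 falls were still called (3 of the 18 had passed the filter through the 10 DPA libraries alone) and 3 MYB_related genes were called higher. Of all genes, 11.6% were then called, 3.76% higher and 7.86% lower.

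The largest changes were those of 3 abundant MYB genes. TRIUR3_25784, the most abundant MYB gene at 5 and at 10 DPA, was listed at 0 in all 15 DPA libraries and had 28.86, 26.33 and 28.12 FPKM at 10 DPA (adjusted p = 2.12e-08 by limma). At 5 DPA it had 55.11, 73.42 and 75.97 FPKM. TRIUR3_25230 was likewise listed at 0 in all 15 DPA libraries, against 13.67, 17.74 and 9.88 FPKM at 10 DPA (adjusted p = 1.96e-07 by limma), and had 57.93, 59.5 and 54.61 FPKM at 5 DPA. Both genes were also listed at 0 in every library of 20 and 25 DPA and of leaf, so each was seen in all 6 early endosperm libraries and in none of the other 12. TRIUR3_20797, which had peaked at 10 DPA, was at 0 in all 15 DPA libraries too (adjusted p = 9.03e-07 by limma). The limit of the filter given above for this gene holds here too. Among all members, 15 had a 5 DPA mean of at least 1 FPKM and were listed at 0 in all 9 libraries of 15 to 25 DPA, 6 of them MYB and 9 MYB_related. These were 15.6% of members with such a 5 DPA mean, against 8.46% of all genes.

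Among MYB_related genes the largest fall was that of TRIUR3_21190, with 2.65, 11.16 and 0 FPKM at 15 DPA and 34.94, 21.49 and 18.88 FPKM at 10 DPA. The groups did not overlap, and the log2 change was -2.83 (SE 0.80, adjusted p = 0.0219 by limma). The call was lost without 10 DPA library 1 or 2 or without 15 DPA library 1 or 3. The other direction was rare. TRIUR3_31731 (MYB), chosen as the only member called higher, had 1.36, 1.39 and 1.64 FPKM at 15 DPA, against 0 in all 10 DPA libraries (adjusted p = 0.0497 by limma). It was not called after scaling, which instead called TRIUR3_11068, TRIUR3_01040 and TRIUR3_06313 (all MYB_related) higher at 15 DPA. TRIUR3_11068 had 19.91, 30.1 and 25.78 FPKM at 15 DPA and 4.15, 2.24 and 6.68 FPKM at 10 DPA. These groups did not overlap, with a log2 change of 2.36 (SE 0.87, adjusted p = 0.0704 by limma) in the deposited values and 2.89 (adjusted p = 0.000677) after scaling. TRIUR3_01040 had 13.37, 12.95 and 12.49 FPKM at 15 DPA and 5.22, 4.1 and 5.11 FPKM at 10 DPA, again without overlap.

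**Figure D3:**
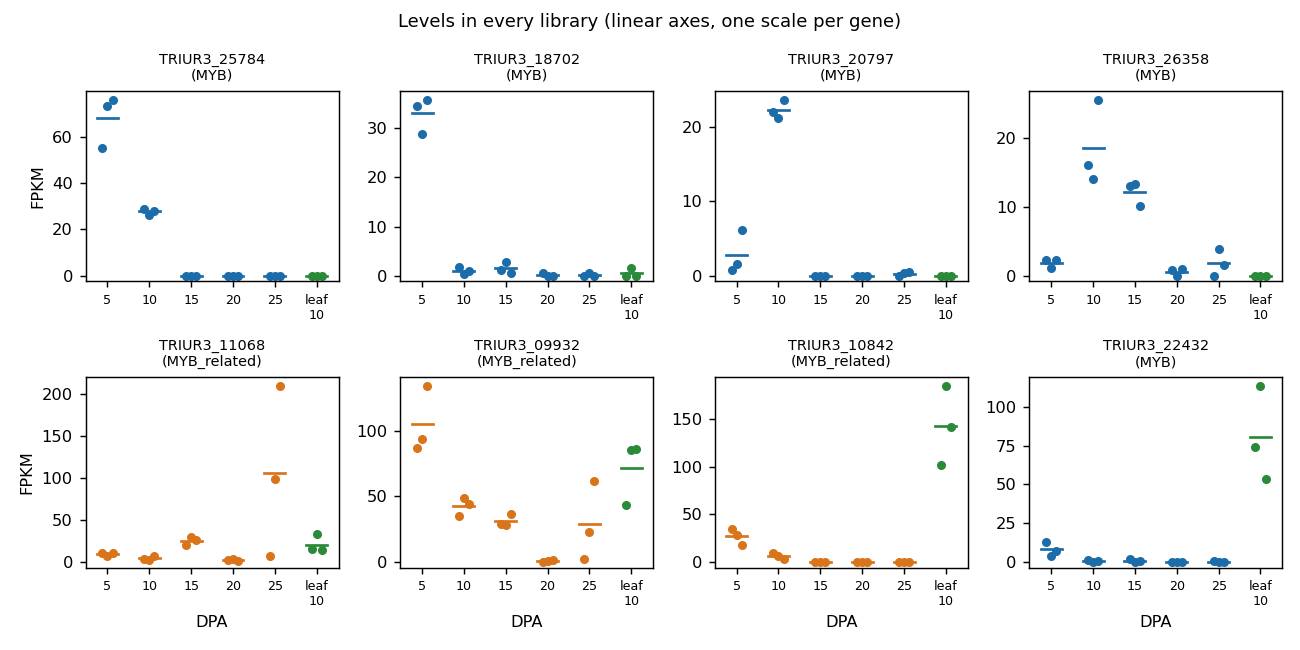
FPKM of 8 members in every library (points; lines are means of 3 libraries; linear axes with a scale for each gene) at 5 endosperm stages and in flag leaf. TRIUR3_25784 and TRIUR3_18702 are highest at 5 DPA, TRIUR3_20797 and TRIUR3_26358 at 10 DPA, TRIUR3_11068 in 25 DPA library 3 (210.32 FPKM), and TRIUR3_10842 and TRIUR3_22432 in leaf.

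At 20 DPA no member reached 10 FPKM in any library, the highest value being 6.75 FPKM for TRIUR3_26810 (MYB_related) in library 3. Against 15 DPA, 2 members rose and 36 fell, 17 MYB and 19 MYB_related genes among the falls, where 43.7% of all genes tested were called, 0.69% higher and 43% lower. The median log2 change was -0.81 for the family and -1.09 for all genes. After scaling 4 members rose and 8 fell among 81, 3 MYB and 5 MYB_related genes among the falls. Of all genes, 18.4% were then called, 4.7% higher and 13.7% lower. Of the 8 falls, 7 were called in both sets of values. All 21 prolamin genes also fell at 20 DPA in the deposited values, with a median log2 change of -3.76, and 0 were called after scaling. Their part in the family's falls was not tested.

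TRIUR3_09932 (MYB_related), the most abundant member in every 5 and 10 DPA library, had 0, 1.08 and 1.26 FPKM at 20 DPA and 28.8, 28.45 and 36.46 FPKM at 15 DPA. The log2 change was -4.26 (SE 0.81, adjusted p = 0.00186 by limma) and -2.89 after scaling. TRIUR3_01040 had 0.19, 0.21 and 0.47 FPKM at 20 DPA, far below its 15 DPA libraries (log2 change -3.44, SE 0.53, adjusted p = 0.000581 by limma). TRIUR3_10644 (MYB_related) had 0.53, 1.13 and 1.31 FPKM at 20 DPA and 19.67, 20.54 and 13.99 FPKM at 15 DPA (log2 change -3.26, SE 0.54, adjusted p = 0.000809 by limma). Both were also called after scaling. The falls of TRIUR3_26358, TRIUR3_11068 and TRIUR3_06499 were not called after scaling, with adjusted p between 0.0947 and 0.388 by limma. The call for TRIUR3_11068 was also lost without 20 DPA library 3, and that for TRIUR3_06499 without 20 DPA library 1 or 3. The 2 members that rose, TRIUR3_30912 (MYB_related) and TRIUR3_21241 (MYB), were listed at 0 in all 15 DPA libraries and stayed low. TRIUR3_30912 had 2.68, 1.45 and 1.7 FPKM at 20 DPA (adjusted p = 0.0209 by limma). TRIUR3_21241 had 0.67, 1.58 and 2.13 FPKM (adjusted p = 0.0257 by limma). Outside 20 DPA it reached 1 FPKM in fewer than 3 endosperm libraries, so it needed its 20 DPA libraries to meet the filter. Both rises were also called after scaling, though each call was lost in some of the 15 fits that left out a library. Scaling divided the 20 DPA values by 0.117 to 0.185, which enlarged these low values and left the 15 DPA values at 0.

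At 25 against 20 DPA, 29 members rose and 0 fell, where 35.4% of all genes tested were called, 35.3% higher and 0.154% lower. In the limma fit 36 of 99 members had an unadjusted p under 0.05, against 9548 of all 19418 genes tested. MYB_related genes made up 21 of the 29 rises, out of 50 tested, and MYB genes 8 out of 49. The median log2 change was 0.88 for MYB_related, 0.39 for MYB and 1.00 for all genes. After scaling 10 members rose, 2 MYB and 8 MYB_related, and 4 fell, where 11.7% of all genes were called, 8.02% higher and 3.66% lower. All 10 of these rises were called in both sets of values. Of the 21 prolamin genes 0 were called in the deposited values, and 13 were lower after scaling. Their part in the family's rises was not tested. These calls depended on the 25 DPA libraries, which differed from each other. Library 1 was the lowest of the 3 for all 29 members, as for 98.7% of all genes that rose, and library 3 was the highest for 24, or 82.8%, against 82.6%. No overlap with 20 DPA was seen for 16 of the 29, or 55.2%, against 47% of all genes that rose. Without 25 DPA library 2 there were 0 calls, without library 3 there were 2, and without library 1 there were 42, when 59.4% of all genes tested were called. Without 20 DPA library 1 there were 9, and when the libraries of 20 and 25 DPA were fitted alone there were 0.

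TRIUR3_11068 (MYB_related) had the largest rise, with 7.51, 99.71 and 210.32 FPKM at 25 DPA and 2.88, 3.85 and 0.89 FPKM at 20 DPA. The groups did not overlap, and the log2 change was 4.10 (SE 0.87, adjusted p = 0.0108 by limma) and 2.03 after scaling (adjusted p = 0.012). TRIUR3_09932 had 2.1, 23.25 and 62.05 FPKM at 25 DPA, again above its 20 DPA libraries, with a log2 change of 3.33 (SE 0.81, adjusted p = 0.0137 by limma) and 2.17 after scaling. TRIUR3_21190, listed at 0 in all 20 DPA libraries, had 2.25, 15.54 and 22.17 FPKM at 25 DPA (adjusted p = 0.0126 by limma). Libraries 2 and 3 of 25 DPA carried most of each of these rises. TRIUR3_31603, TRIUR3_18710 and TRIUR3_10644 (all MYB_related) reached 12.27 to 28.23 FPKM in 25 DPA libraries 2 and 3, but 2.14 to 2.77 FPKM in library 1 and 0.53 to 1.38 FPKM at 20 DPA. Their log2 changes were 2.53, 2.45 and 2.39, against 0.88, 0.67 and 0.66 after scaling. The calls for all 6 of these genes were lost without 25 DPA library 2, and the adjusted p of the 6 was between 0.0902 and 0.136 when the libraries of 20 and 25 DPA were fitted alone. TRIUR3_23521 and TRIUR3_26810, which with TRIUR3_11068 were the most abundant MYB_related genes at 25 DPA, had 1.62, 43.43 and 88.35 FPKM and 2.08, 26.76 and 67.97 FPKM. Their 25 DPA libraries overlapped those of 20 DPA. Among MYB genes the highest 25 DPA means belonged to TRIUR3_09033, TRIUR3_30901 and TRIUR3_32691, none of which exceeded 26.07 FPKM in any library of that stage.

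Across the whole period, at 25 against 5 DPA, 2 members were called higher and 69 lower, where 75.6% of all genes tested were called, 3.6% higher and 72% lower. The median log2 change was -2.04 for MYB, -1.65 for MYB_related and -1.99 for all genes. Without 25 DPA library 1, 5 members were higher and 58 lower, where 6.56% of all genes were higher and 61.5% lower. After scaling, 15 of 40 MYB genes and 4 of 41 MYB_related genes were lower, and 2 MYB and 6 MYB_related genes were higher, where 35% of all genes were called, 25.6% lower and 9.38% higher. The difference between the annotations itself was not tested. Among the named members, TRIUR3_25784, TRIUR3_25230, TRIUR3_28766 (all MYB) and TRIUR3_10842 (MYB_related) were listed at 0 in all 25 DPA libraries. TRIUR3_28766 had had 9.94, 10.85 and 22.15 FPKM at 5 DPA. TRIUR3_18702 had 0, 0.55 and 0 FPKM at 25 DPA, with a log2 change of -4.87 (SE 0.37, adjusted p = 2.89e-08 by limma) and -2.94 after scaling. TRIUR3_24104 had 0.7, 0 and 0 FPKM at 25 DPA, with a log2 change of -3.86 (SE 0.34, adjusted p = 1.51e-07 by limma) and -1.46 after scaling. The higher calls were TRIUR3_11068 and TRIUR3_21241, and both overlapped with 5 DPA. TRIUR3_21241 needed its 25 DPA libraries to meet the filter. For TRIUR3_11068 the log2 change was 2.46 (SE 0.87, adjusted p = 0.0183 by limma), and the call was lost without 25 DPA library 2 or 3 or without 5 DPA library 2. It was 4.36 after scaling (adjusted p = 5.4e-06).

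**Figure D4:**
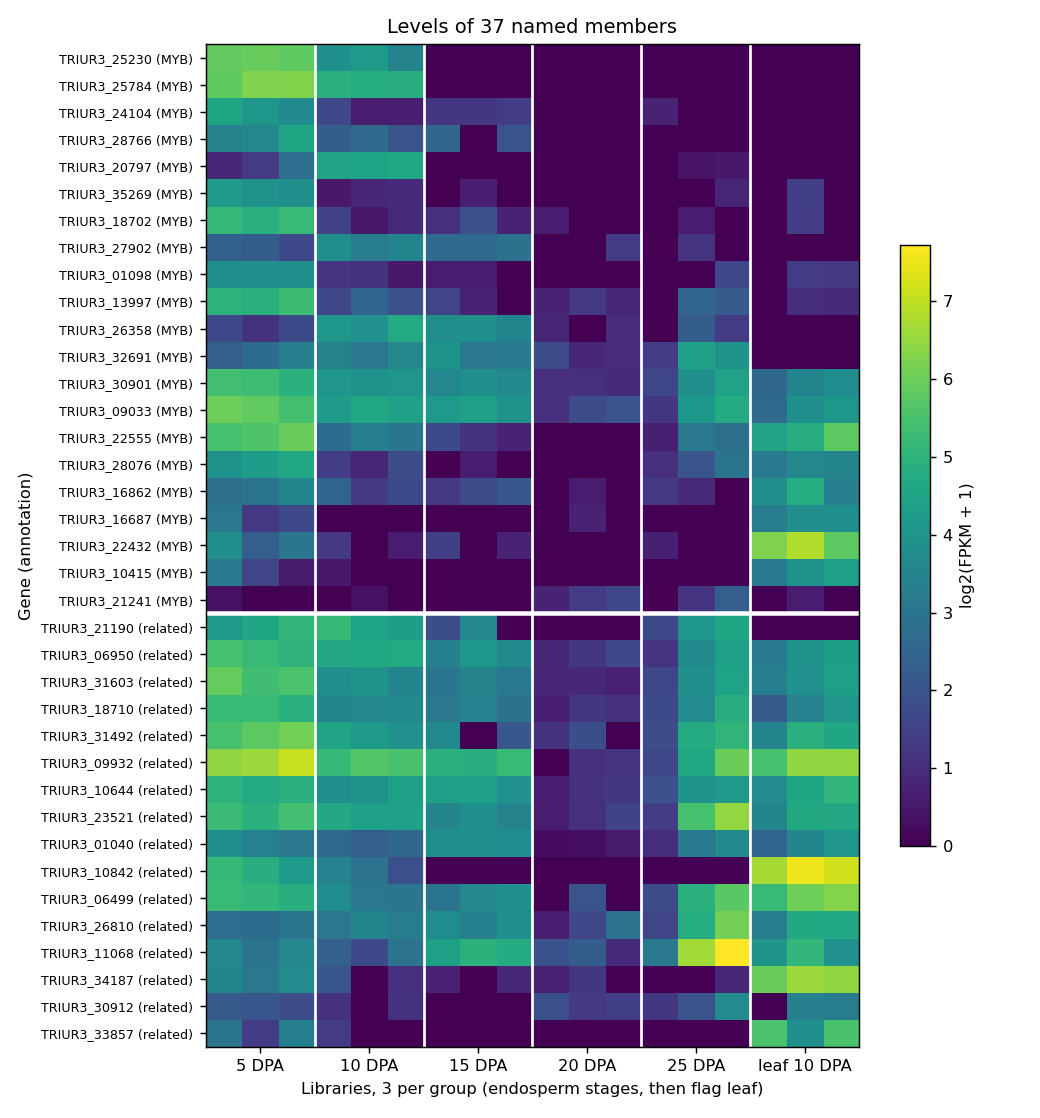
Levels, as log2(FPKM + 1), of the 37 members chosen by the rule for named genes in each of the 18 libraries, with MYB genes above the white line and MYB_related genes below it, and 3 libraries per group from 5 DPA on the left to flag leaf on the right. The 20 DPA columns and the first 25 DPA column are dark throughout, and several MYB rows are bright in 1 or 2 stages only.

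Endosperm and flag leaf were compared at 10 DPA, the stage at which both tissues were sampled, in a fit of these 6 libraries that admitted 83 members, 41 MYB and 42 MYB_related. Endosperm was higher for 26 members and lower for 19, where 48.8% of all genes tested were called, 21.7% higher and 27.1% lower. MYB genes were higher in 16 and lower in 11 cases, and MYB_related genes higher in 10 and lower in 8. None of these 45 members overlapped between the tissues, like 99.5% of all called genes. Without leaf library 1, which stood apart, 25 were higher and 19 lower. The counts are given as a description, since 22 of the 26 higher members passed the filter through the endosperm libraries alone and 6 of the 19 lower members through the leaf libraries alone, and such genes had to differ. Among all called genes these shares were 46.1% of the higher and 30.1% of the lower. Only genes that reached 1 FPKM in no library of the other tissue are counted here. Members that reached it there in fewer than 3 libraries, such as TRIUR3_22432 and TRIUR3_09734, also needed their higher tissue to be tested. The median log2 change of endosperm over leaf was 0.68 for MYB, 0.16 for MYB_related and -0.01 for all genes. After scaling, which moved the median of all genes to 0.27, 30 members were higher and 18 lower, where 54.8% of all genes were called, 28.8% higher and 25.9% lower. Of the calls in deposited values, 25 higher and 18 lower calls were also made after scaling. The NAC, bHLH and WRKY families had medians of -0.95, -1.26 and -1.74. Among their tested genes, 13 of 54 NAC, 7 of 39 bHLH and 2 of 41 WRKY genes were higher in endosperm, and 24, 20 and 26 were lower.

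Several members were seen in endosperm and not in leaf. Over the whole family, 105 members had an endosperm stage mean of at least 1 FPKM, and 32 of them, 20 MYB and 12 MYB_related, were listed at 0 in every leaf library. This was 30.5% of such members, against 18% of all genes with such a mean. Of the 26 members called higher in 10 DPA endosperm, 18 were listed at 0 in leaf, 11 MYB and 7 MYB_related, or 69.2% against 33.5% of all genes called higher. Any gene at 0 in leaf met the filter through the endosperm libraries alone and had to differ. These shares are therefore a description. The 18 members included TRIUR3_25784, TRIUR3_20797, TRIUR3_26358, TRIUR3_25230, TRIUR3_27902 and TRIUR3_21190, and only their levels, given above, are described. No fold is given against a tissue listed at 0. Leaf libraries were among the shallowest by the relative depth above, at 0.337 to 0.639, so low levels in leaf may have gone undetected.

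Among members called lower in endosperm, the leaf side was led by 3 above 60 FPKM on average. TRIUR3_10842 (MYB_related) had 9.81, 6.74 and 2.71 FPKM in 10 DPA endosperm and 102.28, 184.88 and 141.55 FPKM in leaf, with a log2 change of -4.37 (SE 0.46, adjusted p = 0.000154 by limma). It held 12.5% to 15.8% of the family sum in leaf. TRIUR3_22432 (MYB) had 1.44, 0 and 0.49 FPKM in endosperm and 74.02, 113.43 and 53.77 FPKM in leaf, with a log2 change of -5.66 (SE 0.46, adjusted p = 4.42e-05 by limma). TRIUR3_34187 (MYB_related) had 3.15, 0 and 1.07 FPKM in endosperm and 61.21, 93.74 and 85.43 FPKM in leaf, with a log2 change of -5.29 (SE 0.53, adjusted p = 0.000126 by limma). Each leaf library was above each endosperm library for all 3 genes. TRIUR3_33857 (MYB_related) was uneven in leaf, at 44.95, 13.69 and 44.21 FPKM, and had 1.6, 0 and 0 FPKM in endosperm (log2 change -4.51, SE 0.60, adjusted p = 0.000494 by limma). TRIUR3_10415 and TRIUR3_16687 (both MYB) had 8.23 to 19.65 FPKM in leaf and at most 0.44 FPKM in 10 DPA endosperm, and passed the filter through leaf alone. TRIUR3_22432, TRIUR3_34187 and TRIUR3_33857 reached 1 FPKM in fewer than 3 endosperm libraries and met the filter only with leaf. The log2 changes and p-values of these 3 genes are therefore descriptive.

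Of the 19 members lower in 10 DPA endosperm than in leaf, 15 were above 0 in all 3 libraries of 5 DPA, or 78.9%, against 85.6% of all genes lower in endosperm. The 10 DPA mean was below the 5 DPA mean for 17 of the 19, or 89.5%, against 91.8%. Their 10 DPA mean was at a median of 4.18% of the leaf mean and their 5 DPA mean at 24.7%, against 8.37% and 37.1% for all genes lower in endosperm. For the 84 leaf-abundant genes these values were 4.14% at 10 DPA and 17.3% at 5 DPA, and their part in these values was not tested. TRIUR3_10842, for example, had 35.13, 28.36 and 17.73 FPKM at 5 DPA and 0 FPKM in each of the 9 libraries of 15 to 25 DPA. The highest leaf levels among members not called between the tissues belonged to TRIUR3_09932, with 35.38, 49.1 and 44.46 FPKM in 10 DPA endosperm and 43.81, 85.41 and 85.82 FPKM in leaf, which overlapped.

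**Figure D5:**
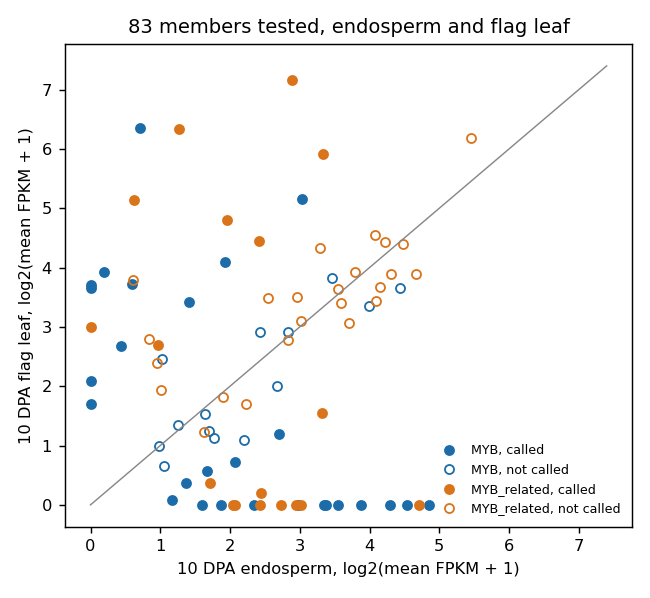
Mean level of the 83 tested members in 10 DPA endosperm (horizontal) and 10 DPA flag leaf (vertical), both as log2(mean FPKM + 1), with called genes filled and the line of equal level in grey. The 26 members higher in endosperm lie below the line, many of them at 0 in leaf, and the 19 lower in endosperm lie above it.

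TuGAMYB, the individually named MYB gene outside the rule, is the family's best known regulator in cereal grains. It had 41.55, 44.79 and 56.68 FPKM at 10 DPA and 12.07, 13.59 and 9.94 FPKM at 5 DPA, without overlap. The log2 change was 1.92 (SE 0.66, adjusted p = 0.0253 by limma), called in 10 of the 15 fits that left out a library, and 2.86 after scaling. In leaf it had 1.21, 0.36 and 1.27 FPKM, and endosperm was higher by a log2 change of 4.67 (SE 0.36, adjusted p = 3.6e-05 by limma). TuGAMYB reached 1 FPKM in fewer than 3 leaf libraries and met this filter only with endosperm, so its p-value here is descriptive. Its 10 DPA mean of 47.7 ± 7.97 FPKM (SD, n = 3) was above that of every MYB member, the highest of which was TRIUR3_25784 at 27.8 ± 1.30 FPKM. At 15 DPA it still had 31.75, 29.95 and 29.93 FPKM, a stage at which TRIUR3_26358 averaged 12.2 ± 1.81 FPKM and TRIUR3_20797 was listed at 0. At 20 DPA it had 1.73, 2.88 and 3.01 FPKM, below all 15 DPA libraries (log2 change -3.18, SE 0.66, adjusted p = 0.00283 by limma), and it was not called after scaling. The 25 DPA libraries again differed, at 2.57, 26.95 and 29.31 FPKM.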

How the data were processed

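The authors deposited 1 table of FPKM values for 27121 genes in 18 libraries. Per the submitters' processing notes, Bowtie 0.12.2 was used, while build, annotation and counting program were not given in the sources used here. Column headings give group and number, so library numbers are column numbers. Of the members, 6 share their values with another gene, none above 2.09 FPKM, and shared reads cannot be separated.

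For testing, FPKM was taken to log2(FPKM + 1), and limma 3.58.1 was run in R 4.3.3 with trended, moderated variances, for 19418 genes in 15 endosperm libraries and 16709 in 6 libraries for endosperm against leaf. Genes needed at least 1 FPKM in at least 3 libraries, and p-values were adjusted over all genes tested. Named members were, per comparison, up to 6 largest rises and falls among calls with a mean of at least 10 FPKM and no overlap, and the 3 highest means per annotation and group. Members, lists and rule were chosen with earlier results of these data known. Alternatives were pseudocounts of 0.1 and 5, no filter, median-ratio scaling (4857 and 11322 genes set the factors, of them 20 and 37 members), the compared groups alone, column number as a replicate block, and leaving out each library.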

Additional observations from a re-analysis of the deposited data

How the results depend on the processing

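Counts of called members moved by more than 1.5 times under some settings. With a pseudocount of 5 they were 35 at 10 against 5 DPA (53 in the report), 7 at 15 against 10 (19), 14 at 20 against 15 (38), 17 at 25 against 20 (29), 42 at 25 against 5 (71) and 27 for endosperm against leaf (45). With 0.1 the first was 28. After median-ratio scaling the counts were 15 at 10 against 5 DPA, 12 at 20 against 15, 14 at 25 against 20, 27 at 25 against 5, and 45 against 94 for change over the stages. Fitted alone, 20 and 25 DPA gave 0 calls. Leaving out each library in turn gave 35 to 62 calls at 10 against 5 DPA, 11 to 29 at 15 against 10, 26 to 45 at 20 against 15, 0 to 42 at 25 against 20, 57 to 72 at 25 against 5, 20 to 44 against leaf and 84 to 95 over the stages. Without a 10 DPA endosperm library, members at 0 in leaf cannot reach 1 FPKM in 3 libraries, so higher calls are lost by construction.

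Column numbers did not pair the libraries (correlation of same-numbered deviations -0.05 to 0.174, 2 of 30 pairs over 0.1). With the number as a replicate block the counts were 52, 18, 39, 29, 71 and 48 for the 6 comparisons and 94 over the stages. Of 756 alternative fits of the named members, 715 kept their call, 41 lost it and 0 turned direction. A further 27 of the 537 fits that left out a library, 24 of them for endosperm against leaf, did not test the named member, which no longer met the filter, and are not in this total. Depth is unknown, so no detection limit can be set for a member listed at 0.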
